A study of Mus musculus with 67 samples.

Results

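A set of 4 genes of the Ly6 family, *Ly6a*, *Ly6c1*, *Ly6c2* and *Ly6e*, were followed across all T-cell libraries of the series. They were selected on their measured levels by strain and tissue in these same libraries, and they are 4 of 24546 gene features in the main experiment and 4 of 24421 gene symbols in a pilot experiment. The main experiment holds 59 RNA-seq libraries in 16 groups: activated conventional T cells (Tconv, 29 libraries, sorted as live CD4+CD25-Foxp3GFP-CD44hiCD62Llow cells and labelled act) and regulatory T cells (Tregs, 30 libraries), from hypothalamus or brain, of strains labelled BalbC (Balb/c, 28 libraries) and BL6 (C57Bl/6J, 31 libraries), on standard diet (SD) or a diet labelled HFD, the high-fat high-sugar (HFHS) diet of the study. Of these groups, 12 have 4 libraries, 3 have 3 and 1 has 2. Each library holds cells pooled from several mice. The labels end in a pair of numbers, which was read here as the numbers of the first and last animal of a pool, and libraries of 1 strain and diet with the same pair were taken as 1 pool, 21 in all. This reading is not stated in the sources used here and is not clean: 67_66 matches no other pool and was paired with none, 47_25 also ends below its start, and 15_21 would contain the mice of 16_20 of the same group. The gate on Foxp3GFP marks Foxp3 reporter mice. Feeding started at 6 weeks of age in female Balb/c mice and male C57Bl/6J mice, so strain and sex cannot be told apart in any comparison between the strains of the main experiment. The duration of feeding of these mice is not given in the sources used here. The pilot experiment holds 8 libraries of hypothalamic T cells, 1 per condition, all from females: CD4+CD44- (CD44neg) T cells and Foxp3GFP+ Tregs of 9 pooled Foxp3GFP Balb/c mice after 16 weeks of SD or HFHS feeding, and CD4+ T cells and CD25high cells of 7 pooled wild-type (WT) C57Bl/6J or leptin-deficient *ob/ob* mice.

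Ly6 genes encode small proteins with a three-finger fold that are held in the outer leaflet of the cell membrane by a GPI anchor. *Ly6a* encodes Sca-1, a marker of blood stem cells that activated and memory T cells also carry. *Ly6c1* and *Ly6c2* encode the proteins recognized by antibodies to Ly6C. *Ly6c2* is known from inflammatory monocytes and memory T cells and *Ly6c1* from endothelial cells. *Ly6e* is widely expressed in lymphocytes and restricts or aids the entry of several viruses. All 4 genes respond to interferons, and inbred mouse strains carry different haplotypes of the cluster: Balb/c and C57Bl/6 differ in which blood cells carry Sca-1 and Ly6C.

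The 4 genes lie close together on chromosome 15 of the mouse (GRCm38, GENCODE M21 annotation), each with 4 exons in the transcript used here. *Ly6e* is at chr15:74955051-74959905 on the plus strand, *Ly6a* at chr15:74994877-74998031, *Ly6c1* at chr15:75044018-75048830 and *Ly6c2* at chr15:75108158-75111970, the last 3 on the minus strand. The coding sequences of *Ly6c1* and *Ly6c2* are identical at 387 of 396 bases (97.73%). *Ly6a* shares 81.98% of aligned coding bases with *Ly6c1*, and *Ly6e* shares 50.46% to 53.81% with the other three. Of the 1758 distinct 31-base words in the spliced *Ly6c1* transcript sequences, 581 (33.05%) also occur in *Ly6c2* and 276 (15.7%) in *Ly6a*, where they are 21.92% of the *Ly6a* words. *Ly6a* and *Ly6c2* share 84 words, and *Ly6e* shares 0 with each of the others. Reads that lie in the shared stretches cannot be assigned to 1 gene by sequence, so the split among *Ly6a*, *Ly6c1* and *Ly6c2* is uncertain, and the sum of *Ly6c1* and *Ly6c2* is given beside their levels in Tconv. The first 120 coding bases are shown because they hold 6 of the 9 differences, which are in capitals. The sequences are those of the C57BL/6J reference, 5′ to 3′ on the coding strand, joined over exons, *Ly6c1* from within chr15:75047420-75048511 and *Ly6c2* from within chr15:75110578-75111667.
Ly6c1: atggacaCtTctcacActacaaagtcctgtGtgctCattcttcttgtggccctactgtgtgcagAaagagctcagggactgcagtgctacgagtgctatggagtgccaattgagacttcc
Ly6c2: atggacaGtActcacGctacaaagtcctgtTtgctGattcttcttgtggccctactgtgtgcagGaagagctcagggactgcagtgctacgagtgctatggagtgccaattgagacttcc
The Balb/c libraries were quantified on this same reference, and the part of that in the strain differences was not tested.

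Libraries of the main experiment hold 1724150 to 38482300 estimated counts, both ends of the range being hypothalamic Treg libraries. T-cell markers (6 genes, such as *Cd3e* and *Lck*) summed to 7306 to 9464 CPM (counts divided by the library's total and scaled to a common size) in the Tconv libraries. In Tregs of the brain they summed to 7168 to 10587 CPM, and *Foxp3* and the other 4 Treg genes listed were higher than in Tconv in both tissues. The hypothalamic Tregs held the fewest detected features (3562 to 11460, median 5810). In 4 of these 16 libraries *Foxp3*, the defining transcription factor of Tregs, was below 10 CPM (0.0977, 0.429, 1.21 and 3.48 CPM). Low *Foxp3* alone does not show a wrong label. The 5 Treg genes listed summed to at least 1478 CPM in each Balb/c hypothalamic Treg library and to at most 684 CPM in Tconv. In C57Bl/6J hypothalamic Tregs the lowest sum was 73.7 CPM. In 1 of the 4 libraries low in *Foxp3*, BL6 SD pool 11_15, T-cell markers summed to 183 CPM and endothelial markers to 11683 CPM. The strain levels of *Ly6a* and *Ly6e* and the Treg contrasts of the 4 genes in the hypothalamus are therefore also given without these 4 libraries. Diet fits of hypothalamic Tregs without them are given with the alternatives in processing. The other comparisons on hypothalamic Tregs include them, and the listed genes were not refitted. In bulk libraries, fewer cells of a type and less RNA per cell cannot be told apart.

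*Ly6a*, *Ly6c2* and *Ly6e* were higher in C57Bl/6J than in Balb/c Tconv, and *Ly6c1* was lower. These strain levels are part of what chose the genes, so they are described and not tested. *Ly6a* in hypothalamic Tconv was 80.1 to 228 CPM in Balb/c (median 105, n = 8) and 1246 to 2389 CPM in C57Bl/6J (median 1974, n = 8). The means of 125 ± 52.8 and 1886 ± 375 CPM (SD) differ 15.1-fold. In Tconv of the brain, *Ly6a* was 76.1 to 227 CPM in Balb/c (median 154, n = 6) and 1353 to 2045 CPM in C57Bl/6J (median 1775, n = 7), means that differ 11.4-fold. Every C57Bl/6J library lay above every Balb/c library in both tissues.

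*Ly6e* showed the same order of the strains. In hypothalamic Tconv it was 644 to 1289 CPM in Balb/c (median 956, n = 8) and 2627 to 4442 CPM in C57Bl/6J (median 3716, n = 8), with means that differ 3.93-fold. In the brain it was 645 to 1014 CPM (median 836, n = 6) against 3139 to 4178 CPM (median 3819, n = 7), a 4.43-fold difference of the means. The strains did not overlap in either tissue.

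*Ly6c2*, the Ly6C gene of memory T cells and monocytes, was 64.4 to 244 CPM in hypothalamic Tconv of Balb/c mice (median 189, n = 8) and 485 to 1031 CPM in those of C57Bl/6J mice (median 867, n = 8). In the brain the ranges were 147 to 355 CPM (median 236, n = 6) and 703 to 1395 CPM (median 887, n = 7). The means differ 4.8-fold and 4.0-fold, and the strains did not overlap. *Ly6c1*, its near copy, went the other way. In hypothalamic Tconv it was 44.2 to 169 CPM in Balb/c (median 126) and 16.3 to 56.2 CPM in C57Bl/6J (median 44.2), so that the lowest Balb/c library (SD pool 42_46) lay within the C57Bl/6J range. In the brain, 104 to 248 CPM in Balb/c (median 175) and 32.6 to 80.5 CPM in C57Bl/6J (median 53.3) did not overlap. The Balb/c mean was 2.94-fold and 2.98-fold that of C57Bl/6J.

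On the scale log2(CPM + 1), the differences C57Bl/6J minus Balb/c in hypothalamic Tconv were 3.98 for *Ly6a*, 2.32 for *Ly6c2*, 2.0 for *Ly6e* and -1.53 for *Ly6c1*. In Tconv of the brain they were 3.61, 2.01, 2.16 and -1.58. Among all genes tested for range, 0.641% lay wholly above and 0.753% wholly below in C57Bl/6J hypothalamic Tconv, and 8.52% and 5.35% did so in the brain. Of the 4 genes, 3 lay wholly above and 0 wholly below in the hypothalamus, and 3 and 1 in the brain. These counts follow from how the genes were chosen. The plot of the 4 genes by group shows each library.

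**Figure D1:**
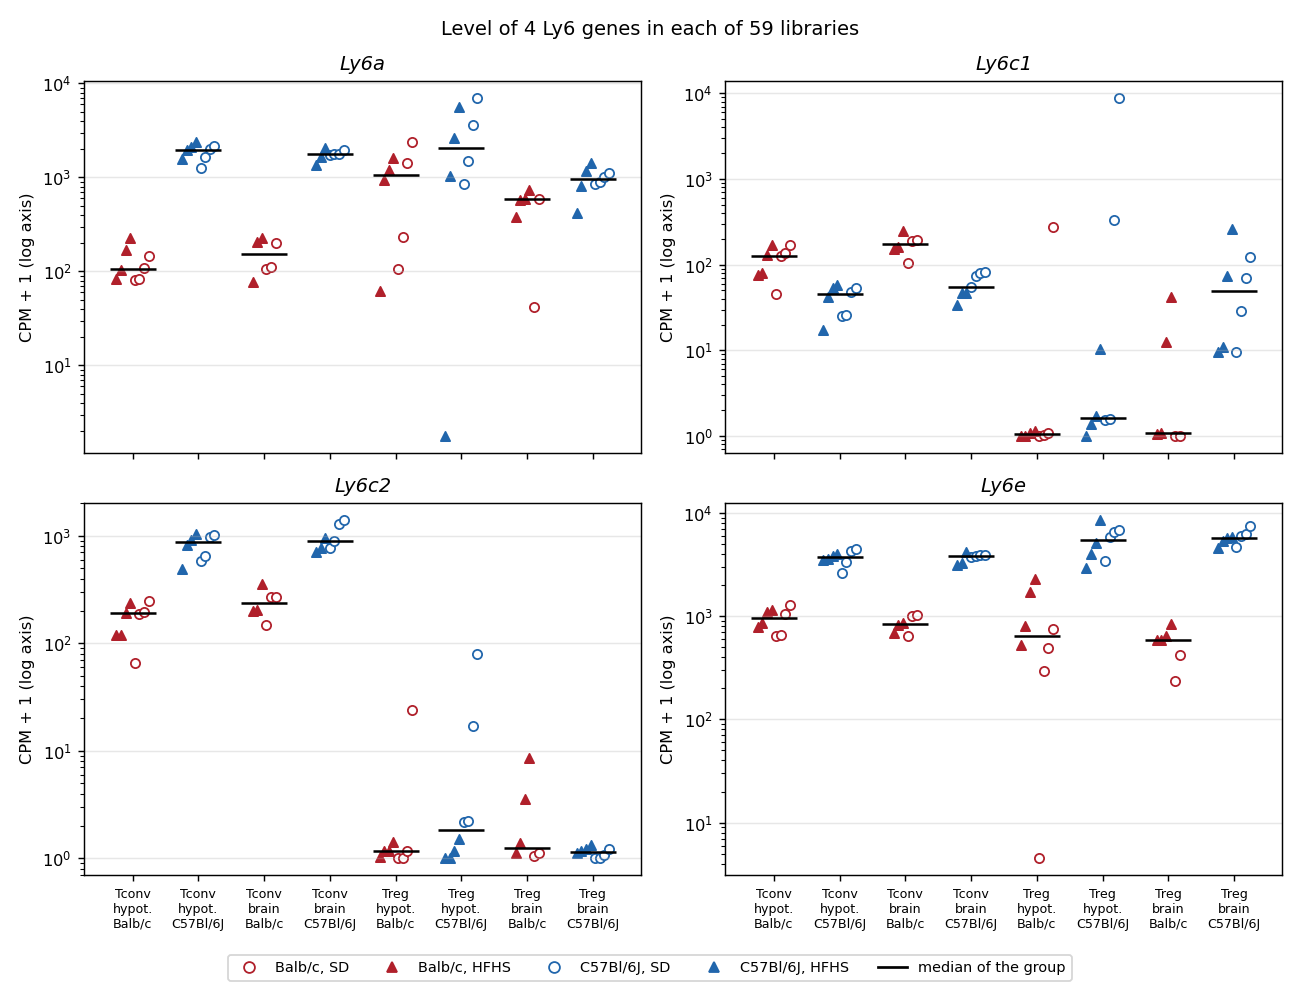
Level of each gene (CPM + 1, log axis) in each of the 59 libraries, by cell type, tissue and strain, with open circles for SD, filled triangles for the HFHS diet and a bar at the median. In Tconv the strains are apart for Ly6a, Ly6c2 and Ly6e, with C57Bl/6J medians of 1974, 867 and 3716 CPM in the hypothalamus against 105, 189 and 956 CPM in Balb/c; in Tregs only Ly6e stays apart, and Ly6c2 is near 0 in most libraries.

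The split between the near copies also differed between the strains. The estimated counts of *Ly6c1* divided by those of *Ly6c2* gave 0.702 ± 0.0402 in the 14 Balb/c Tconv libraries (range 0.644 to 0.807) and 0.0558 ± 0.0217 in the 15 C57Bl/6J libraries (range 0.0249 to 0.106). Within Balb/c the genes moved together from library to library (Pearson r = 0.993 over 14 libraries of the log2 values), more closely than within C57Bl/6J (r = 0.523 over 15). Libraries read as 1 pool would share mice, and the reads of the identical stretches are divided between the genes in every library. Summed, the pair was 109 to 413 CPM in Balb/c hypothalamic Tconv (median 315) and 502 to 1083 CPM in C57Bl/6J (median 916), a difference of 1.64 on the log2(CPM + 1) scale without overlap. In the brain the sum was 251 to 602 CPM (median 410) against 749 to 1449 CPM (median 960), a difference of 1.31. The direction of the sum is that of *Ly6c2* in both tissues.

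The transcript names to which *Ly6a* reads were assigned also differed. In libraries with at least 50 estimated counts, a median of 93.0% of the *Ly6a* counts fell on a name of 987 bases in Balb/c (28 libraries), where that name took 2.88% in C57Bl/6J (30 libraries). There, 83.7% fell on a name of 956 bases, which had a median of 0% in Balb/c, and 13.4% on one of 971 bases. *Ly6e* counts were divided alike in both strains: a name of 1864 bases took 41.9% in Balb/c and 40.3% in C57Bl/6J, one of 2070 bases 36.8% and 36.7%, and one of 2067 bases 19.0% and 21.8%. For *Ly6c1*, 98.9% and 94.5% fell on a name of 849 bases, and *Ly6c2* has 1 name. Whether the names of *Ly6a* reflect transcripts or bases that differ between the strains was not tested.

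In Tregs, *Ly6e* was the only one of the 4 genes whose strains did not overlap. It was 3.52 to 2267 CPM in hypothalamic Tregs of Balb/c mice (median 635, n = 8) and 2905 to 8500 CPM in C57Bl/6J (median 5513, n = 8). In Tregs of the brain it was 237 to 832 CPM (median 585, n = 6) against 4533 to 7381 CPM (median 5731, n = 8), a 10.4-fold difference of the means. *Ly6a* overlapped: 60.9 to 2388 CPM (median 1063) against 0.773 to 7005 CPM (median 2069) in the hypothalamus, and 40.8 to 734 CPM (median 584) against 414 to 1418 CPM (median 951) in the brain. Of all genes, 0.0455% lay wholly above and 0.182% wholly below in C57Bl/6J hypothalamic Tregs, and 0.281% and 0.606% in Tregs of the brain. The log2(CPM + 1) difference of *Ly6e* was 3.63 and 3.46 in the 2 tissues, and that of *Ly6a* 0.82 and 1.32. The *Ly6a* values moved with single libraries: in the brain from 0.70 without Balb/c SD pool 42_46 to 1.52, and in the hypothalamus from 0.36 without Balb/c HFHS pool 11_14 to 2.12 without C57Bl/6J HFHS pool 06_10, 1 of those low in *Foxp3*. Without the 4 hypothalamic libraries low in *Foxp3*, the differences there were 2.94 for *Ly6e* and 2.0 for *Ly6a*.

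*Ly6c2* was near 0 in most Treg libraries of both strains. In the brain it was 0.0549 to 7.50 CPM in Balb/c and 0 to 0.331 CPM in C57Bl/6J, and in the hypothalamus it passed 1.3 CPM in 3 of 16 libraries, at 16.0, 22.9 and 79.2 CPM. *Ly6c1* was near 0 in most Treg libraries of Balb/c mice, with medians of 0.0548 CPM in the hypothalamus and 0.0756 CPM in the brain. In C57Bl/6J Tregs of the brain, however, it was 8.54 to 258 CPM (median 48.2, n = 8), which spans the 32.6 to 80.5 CPM of C57Bl/6J Tconv there. These 8 libraries had *Ly6c2* at 0 to 0.331 CPM and *Ly6a*, which shares words with *Ly6c1*, at 414 to 1418 CPM. The part of shared *Ly6a* reads in the *Ly6c1* levels was not tested.

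Hypothalamus and brain gave overlapping levels for each of the 4 genes, in each cell type and strain, and this contrast too is described without a test. Of all genes, 10.2% did not overlap between the tissues in Balb/c Tconv, 0.176% in C57Bl/6J Tconv, 2.24% in Balb/c Tregs and 0.184% in C57Bl/6J Tregs, and of the 4 genes 0 did in each. *Ly6c1* had the largest tissue difference in Tconv, -0.66 in Balb/c and -0.61 in C57Bl/6J on the log2(CPM + 1) scale (hypothalamus minus brain). Where 1 pool gave Tconv libraries of both tissues, *Ly6c1* was lower in the hypothalamus in 4 of 4 C57Bl/6J pools (-1.66 to -0.14) and in 4 of 5 Balb/c pools (-2.11 to 0.25). *Ly6c2*, its near copy, was lower there in 3 of 4 C57Bl/6J pools (-1.13 to 0.11) and in 4 of 5 Balb/c pools (-2.05 to 0.34). The tissue differences of *Ly6a* and *Ly6e* in Tconv ranged from -0.28 to 0.15, and within pools *Ly6e* was higher in the hypothalamus in 5 of 5 Balb/c pools (0.14 ± 0.14, SD) and 3 of 4 C57Bl/6J pools (0.0041 ± 0.38). Where 1 pool gave Treg libraries of both tissues, *Ly6a* was higher in the hypothalamus in 4 of 5 pools of each strain. The *Ly6a* differences were -0.07, 0.43, 1.17, 2.80 and 3.04 in C57Bl/6J and -1.34, 0.69, 1.44, 1.67 and 5.09 in Balb/c. The value of 3.04 is that of pool 11_15, whose hypothalamic library had *Foxp3* at 1.21 CPM and endothelial markers at 11683 CPM. The value of 5.09 is that of pool 42_46, with its brain Treg library at 40.8 CPM. *Ly6e* was higher in the hypothalamus in 4 of 5 Balb/c pools (-0.15 to 1.83) and 3 of 5 C57Bl/6J pools (-0.33 to 0.91). The hypothalamic Tregs of these pools were not restricted to the libraries with *Foxp3* above 10 CPM. Over all Treg libraries with 1 left out, the *Ly6a* difference ran from -0.30 to 1.41 in C57Bl/6J and from -0.01 to 1.07 in Balb/c. C57Bl/6J HFHS pool 06_10, with *Ly6a* at 0.773 CPM in hypothalamic Tregs, has no brain Treg library and is not among the pools above.

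Ordered by mean CPM over cell type, tissue and strain, *Ly6e* was highest in C57Bl/6J Tregs of the brain (5704 ± 899) and hypothalamus (5385 ± 1886), then C57Bl/6J Tconv of the brain (3706 ± 365) and hypothalamus (3697 ± 582). The next group, Balb/c hypothalamic Tconv (940 ± 237), did not overlap the group before it, and the 4 Balb/c groups overlapped each other. *Ly6c2* was highest in C57Bl/6J Tconv of the brain (964 ± 273) and hypothalamus (809 ± 209), which did not overlap Balb/c Tconv of the brain (241 ± 72.7). For *Ly6a* and *Ly6c1*, each group overlapped the next one in the order. Compared per length in TPM, which divides by transcript length, *Ly6e* led in Balb/c Tconv (mean 622 TPM in the hypothalamus) before *Ly6c2* (339 TPM), *Ly6c1* (215 TPM) and *Ly6a* (190 TPM). In C57Bl/6J hypothalamic Tconv *Ly6a* led (3011 TPM) before *Ly6e* (2468 TPM), *Ly6c2* (1653 TPM) and *Ly6c1* (73.8 TPM), and the order was the same in the brain within each strain. By mean TPM, *Ly6a* stood last of the 4 genes in Balb/c Tconv and first in C57Bl/6J Tconv. In the hypothalamus its SD overlapped that of the nearest gene in both strains. The values were 190 ± 78.8 against 215 ± 82.7 TPM for *Ly6c1* in Balb/c, and 3011 ± 463 against 2468 ± 263 TPM for *Ly6e* in C57Bl/6J.

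Tregs were next compared with Tconv, a contrast tested with edgeR's quasi-likelihood test over all genes of a tissue, with Benjamini-Hochberg adjusted p-values and a threshold of 0.05. In the hypothalamus 0.744% of genes were higher and 32.7% lower in Tregs, with a median log2 fold change over all genes of -1.49. In the brain the shares were 4.68% and 15.2% and the median -0.42, so changes are best read against these medians. Of the 4 genes, 1 was higher and 2 were lower in hypothalamic Tregs, and 0 were higher and 2 lower in those of the brain.

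*Ly6c2* was lower in Tregs by the widest margin. Its Tconv levels of 64.4 to 1395 CPM lay above each of the 30 Treg libraries except that with 79.2 CPM (adjusted p = 1.45e-06 in the hypothalamus and 8.31e-12 in the brain). It was lower within both strains in the hypothalamus (adjusted p = 0.000735 in Balb/c and 0.000968 in C57Bl/6J) and in the brain (8.41e-08 and 4.74e-11). In the hypothalamus it was also lower without the 4 libraries low in *Foxp3* (adjusted p = 1.10e-08, and within the strains 2.79e-07 in Balb/c and 7.46e-05 in C57Bl/6J) and without the 3 with *Cldn5* described below (3.91e-08). Fitted fold changes of a gene so near 0 depend on the prior count and are left out here. CD8 T cells also carry Ly6C, and their markers *Cd8a* and *Cd8b1* moved with *Ly6c2*: 2 of 2 were lower in Tregs in each tissue, and their sum was 1.94 to 736 CPM in Tconv and 0 to 179 CPM in Tregs. The sort took CD4+ cells, and CD8a was among the markers by which cells were left out in the study's flow cytometry. Over C57Bl/6J Tconv libraries the correlation of the log2 CD8 sum with *Ly6c2* was 0.19 (n = 15), and over Balb/c libraries 0.08 (n = 14). The part of CD8 T cells in the *Ly6c2* levels was not tested.

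*Ly6c1* was lower in Tregs of the brain (adjusted p = 0.00134). In Balb/c mice it fell from 104 to 248 CPM in Tconv to 0 to 41.5 CPM in Tregs (adjusted p = 0.000418), whereas in C57Bl/6J mice the log2 fold change was 0.44 ± 0.85 (SE, adjusted p = 0.909). The C57Bl/6J value had no firm sign: it was -0.96 with the pool of mice as a block (adjusted p = 0.539), -0.34 to 0.63 when 1 library was left out, and within pools *Ly6c1* was lower in Tregs in 5 of 7. Within pools of Balb/c mice it was lower in 5 of 5. The contrast of the 2 strains is given as a description, since the strain levels helped to choose the genes.

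In the hypothalamus the call for *Ly6c1* (adjusted p = 0.0476) was lost when any of 17 of the 32 libraries was left out (adjusted p = 0.000215 to 0.0642 over all 32), with the same direction throughout. Without the 4 libraries low in *Foxp3* the adjusted p was 0.000273 over both strains, 0.000101 within Balb/c and 0.804 within C57Bl/6J. *Ly6c1* was above 10 CPM in 3 of the 16 Treg libraries, at 273, 332 and 8850 CPM, all of the SD. *Cldn5*, a tight junction gene of brain endothelium, was above 10 CPM in the same 3 libraries, at 39.7, 49.9 and 2122 CPM, as the plot of hypothalamic Tregs shows. *Pecam1*, which is found in endothelium and in other cells, was at 0 in 2 of these 3 and at 222 and 286 CPM in a pair of libraries with *Ly6c1* at 0. The 12 endothelial markers summed to 11683 CPM in pool 11_15 and to 46.5 and 61.7 CPM in the other two, which lies within the 0 to 286 CPM of the remaining 13 libraries. The part of endothelial cells in the *Ly6c1* levels was not tested.

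**Figure D2:**
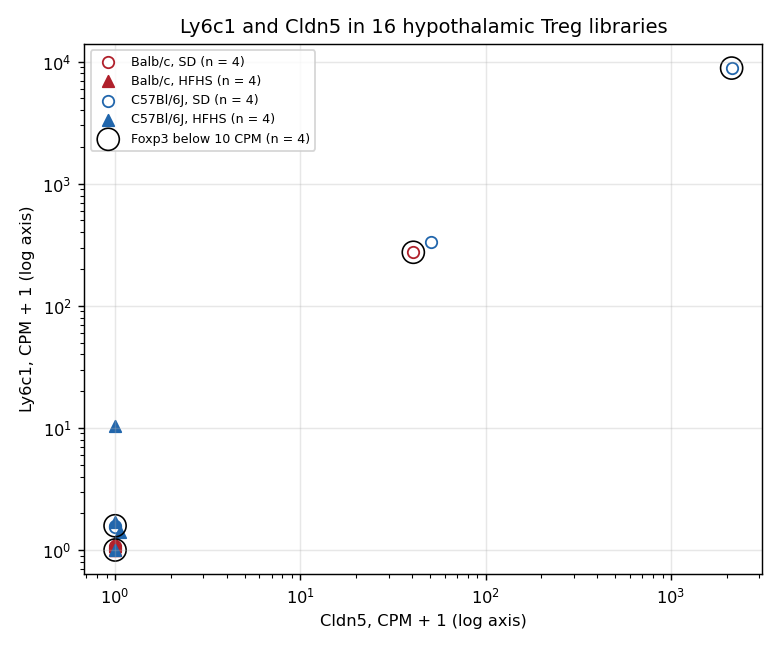
Ly6c1 against Cldn5 (CPM + 1, log axes) in the 16 hypothalamic Treg libraries, with open circles for SD, filled triangles for the HFHS diet and rings around the 4 libraries with Foxp3 below 10 CPM. The 3 libraries with Cldn5 above 10 CPM have Ly6c1 at 273 to 8850 CPM, and the other 13 lie at the left with Ly6c1 below 10 CPM, many of them on top of each other.

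In Tregs of the brain, endothelial markers summed to 23.7 to 134 CPM, and *Pecam1* was the only 1 of the 12 at 10 CPM or more, with medians of 94.5 CPM in Balb/c and 94.9 CPM in C57Bl/6J. *Cldn5* was at 0 throughout the 6 Balb/c libraries and in 7 of 8 from C57Bl/6J, with 0.0493 CPM in the last, beside *Ly6c1* at 0 to 41.5 CPM and 8.54 to 258 CPM.

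*Ly6e* went in opposite directions in the 2 strains in the brain. In C57Bl/6J mice, Tregs had 4533 to 7381 CPM and Tconv 3139 to 4178 CPM without overlap (log2 fold change 0.67 ± 0.14, adjusted p = 0.00371). In Balb/c mice, Tregs had 237 to 832 CPM and Tconv 645 to 1014 CPM, with overlap (log2 fold change -1.14 ± 0.16, adjusted p = 9.60e-06). The difference between the strains, given as a description, was -1.81 on the log2 scale. Within pools that gave both cell types, *Ly6e* was higher in Tregs in 7 of 7 C57Bl/6J pools, by 0.61 ± 0.20 (SD), and lower in 5 of 5 Balb/c pools, by 0.03 to 2.10. The Balb/c differences were -2.10 and -0.62 on SD and -0.48, -0.09 and -0.03 on the HFHS diet, so the wider ones are those of the SD pools. With the pool as a block the value within Balb/c was -0.78 (adjusted p = 0.0309), and the call within C57Bl/6J was lost (0.64, adjusted p = 0.0706). In hypothalamic Tregs no difference of *Ly6e* from Tconv passed the test (log2 fold change 0.06 ± 0.30, adjusted p = 0.984), nor without the 4 libraries low in *Foxp3* (0.29, adjusted p = 0.249, and 0.80, adjusted p = 0.0568, within C57Bl/6J).

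*Ly6a* was higher in Tregs than in Tconv of the hypothalamus (log2 fold change 1.78 ± 0.49, adjusted p = 0.00507). The call was lost with the pool as a block (1.05, adjusted p = 0.134) and held without the 4 libraries low in *Foxp3* (1.30, adjusted p = 0.00520) and without the 3 with *Cldn5* (1.45, adjusted p = 0.0209). Within Balb/c it was 3.0 ± 0.72 (adjusted p = 0.00363, and 0.0235 with the block), and within C57Bl/6J 0.56 ± 0.67 (adjusted p = 0.831). With the block the C57Bl/6J value turned to -0.27. *Ly6a* was higher in hypothalamic Tregs in 7 of 8 Balb/c pools and in 4 of 7 C57Bl/6J pools. Without the libraries low in *Foxp3* the Balb/c and C57Bl/6J values were 2.52 (adjusted p = 0.000971) and 0.08 (adjusted p = 0.9998). Brain *Ly6a* had log2 fold changes of 1.19 ± 0.40 in Balb/c (adjusted p = 0.0556) and -0.83 ± 0.34 in C57Bl/6J (adjusted p = 0.134). The Balb/c value was unstable: its side of the threshold or its sign changed in 13 of 27 fits that left out 1 library, over -0.27 to 1.69 (adjusted p = 0.000388 to 0.615), with the lowest value without the Balb/c SD Treg library of pool 37_41 and the highest without that of pool 42_46. It passed the threshold with size factors of DESeq2 (adjusted p = 0.0255) or library totals (0.0136) in place of TMM scaling. The difference between the strains was 2.02, and 0.55 without the Balb/c SD Treg library of pool 37_41. Within pools, *Ly6a* was lower in Tregs in 7 of 7 C57Bl/6J pools, by 0.49 to 1.07, and higher in 4 of 5 Balb/c pools, the exception being pool 42_46 at 40.8 CPM in Tregs and 104 CPM in Tconv.

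**Figure D3:**
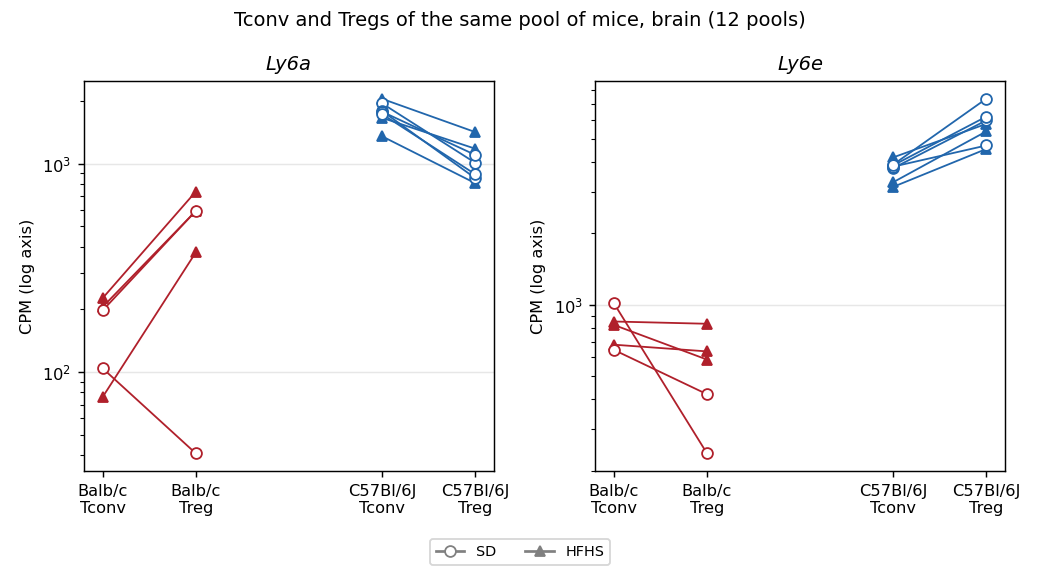
Ly6a and Ly6e (CPM, log axis) in Tconv and Tregs of the brain, joined where the labels were read as 1 pool of mice. There is 1 line per pool (5 of Balb/c and 7 of C57Bl/6J), with open circles for SD and filled triangles for the HFHS diet. Ly6e rises from Tconv to Tregs along each of the 7 C57Bl/6J lines and falls along each of the 5 Balb/c lines; Ly6a falls along the 7 C57Bl/6J lines and rises along 4 of the 5 Balb/c lines.

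For reading these counts, the shares of all genes past the threshold within Balb/c were 0.399% higher and 31.6% lower in hypothalamic Tregs, and 3.75% and 6.21% in those of the brain. Within C57Bl/6J they were 0.487% and 8.41%, and 1.31% and 6.35%. These C57Bl/6J shares moved with single libraries: leaving out 1 gave 385 to 2753 genes in the hypothalamus and 644 to 1791 in the brain. The strain difference of the Treg contrast was past the threshold for 4.86% of genes in the hypothalamus and for 4.85% in the brain. Nothing is read from the 4 genes against these shares, because their strain levels chose them.

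The diet was the study's own comparison, and no diet difference of the 4 genes passed edgeR's test over all libraries of a cell type and tissue. Of all genes, edgeR called 0% for the diet in Tconv of the hypothalamus, in Tconv of the brain, in Tregs of the hypothalamus and in Tregs of the brain (615 of 10877, 979 of 12289, 1122 of 7715 and 933 of 11711 at an unadjusted p under 0.05). DESeq2 called 185, 146, 1225 and 798 genes. For the difference of the diet effect between the strains, edgeR called 0% in hypothalamic Tconv, 0.61% in Tconv of the brain, 0% in hypothalamic Tregs and 0% in Tregs of the brain, with 493, 1568, 1296 and 661 genes at an unadjusted p under 0.05 and 171, 675, 1354 and 587 called by DESeq2. None of the 4 genes was among the 75 called in Tconv of the brain. Within Balb/c Tconv of the brain, 1 of the 6 T-cell markers was higher and 2 were lower on the HFHS diet by edgeR's test (*Cd3e*, *Lck* and *Cd3g*). That test is of Balb/c alone, and its share over all genes is not given here. The diets did not overlap for 21.4% of all genes in this group, so nothing is read from these markers.

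In hypothalamic Tconv the log2 fold changes on the HFHS diet were 0.36 ± 0.20 (SE) for *Ly6a*, 0.07 ± 0.32 for *Ly6c1*, 0.00 ± 0.25 for *Ly6c2* and 0.08 ± 0.16 for *Ly6e*. *Ly6a* in Balb/c mice was 80.1, 82.1, 107 and 146 CPM on SD and 83.0, 102, 170 and 228 CPM on the HFHS diet, and in C57Bl/6J mice 1246, 1654, 1998 and 2182 CPM and 1552, 1951, 2113 and 2389 CPM. The diets overlapped for each of the 4 genes in both strains, where 3.76% of all genes in Balb/c and 2.4% in C57Bl/6J did not. In Tconv of the brain, *Ly6c1* in C57Bl/6J mice was 53.3, 73.4, 78.1 and 80.5 CPM on SD and 32.6, 45.7 and 46.4 CPM on the HFHS diet. In Balb/c mice it was 104, 189 and 194 CPM on SD and 153, 162 and 248 CPM on the HFHS diet. The diets did not overlap in C57Bl/6J mice and overlapped in Balb/c mice. Of the 4 genes, *Ly6c1* was the 1 without overlap in C57Bl/6J, where 6.61% of all genes had none, and 0 had none in Balb/c, against 21.4% of all genes. The difference of the diet effect between the strains, 1.37 ± 0.37, missed the threshold (adjusted p = 0.0825 by edgeR, and 0.0140 by DESeq2).

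Among brain Tregs, *Ly6e* in Balb/c mice was 237 and 420 CPM on SD and 583, 588, 636 and 832 CPM on the HFHS diet. In C57Bl/6J mice it was 4690, 5983, 6204 and 7381 CPM on SD and 4533, 5375, 5679 and 5784 CPM on the HFHS diet. The diets did not overlap in Balb/c mice, where SD has 2 libraries. There 2 of the 4 genes, *Ly6e* and *Ly6c1*, had no overlap, with 15.1% of all genes apart in either direction. For *Ly6c1* this rests on single reads: it had 0 estimated counts in both SD libraries and 1, 1.02, 265 and 718 on the HFHS diet. In C57Bl/6J mice 0 of 3 genes tested for range lay apart, with 4.71% of all genes. For *Ly6e* the difference of the diet effect between the strains was 1.23 ± 0.29 (adjusted p = 0.644 by edgeR, and 0.00910 by DESeq2). *Ly6a* in brain Tregs of Balb/c mice was 40.8 and 593 CPM on SD and 375, 576, 592 and 734 CPM on the HFHS diet, and in C57Bl/6J mice 853, 891, 1010 and 1102 CPM and 414, 807, 1180 and 1418 CPM. The diets overlapped in both strains, and its diet log2 fold change of 0.39 ± 0.43 turned on 1 library. Without the Balb/c SD library of pool 37_41, which leaves the one at 40.8 CPM alone on SD and assumes that it varies like the other groups, the value was 1.88 (adjusted p = 0.0323) and its difference between the strains 3.85 (adjusted p = 0.0286). Without that of pool 42_46 they were -0.06 and -0.03. The diet value of *Ly6c1* in hypothalamic Tregs (adjusted p = 0.139, and 0.00900 to 0.366 when 1 library was left out) is the value of a gene that was above 10 CPM in 3 SD libraries alone. *Ly6c2* was too low to be tested there.

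**Figure D4:**
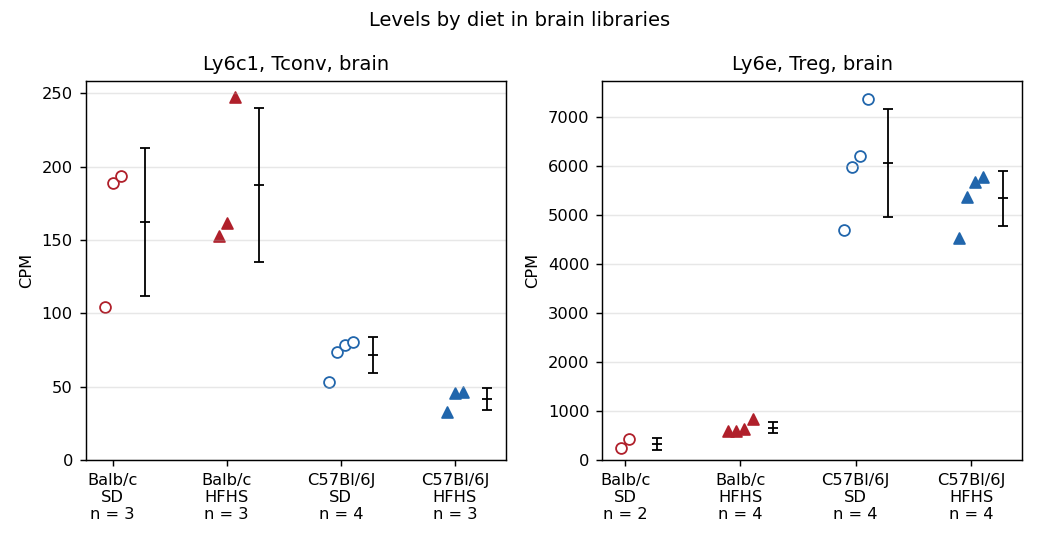
Ly6c1 in Tconv and Ly6e in Tregs of the brain (CPM) by strain and diet, with 1 point per library and the mean with its SD beside them. Ly6c1 in C57Bl/6J Tconv is 53.3 to 80.5 CPM on SD and 32.6 to 46.4 CPM on the HFHS diet, and Ly6e in Balb/c Tregs is 237 and 420 CPM on SD and 583 to 832 CPM on the HFHS diet.

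Interferon-stimulated genes were listed because the Ly6 genes respond to interferons. In the diet comparisons 0 of the 40 listed genes passed the test in any cell type or tissue (37 were tested in hypothalamic Tregs). In Tregs of the brain, 4 of 40 were higher and 3 lower than in Tconv, where 4.68% and 15.2% of all genes were, with *Bst2*, whose protein tethers viruses to the cell, among the 7. In hypothalamic Tregs *Ifi27l2a* was higher and *Oas3*, *Oasl2* and *Ifi44* were lower, where 0.744% and 32.7% of all genes were. Between the strains, 0 of 40 lay apart in hypothalamic Tconv (0.641% of all genes above and 0.753% below in C57Bl/6J), and the median difference of the list was -0.03 on the log2(CPM + 1) scale, with -0.08 over all genes. In Tconv of the brain 15 of 40 lay wholly above and 1, *Ifi44*, wholly below in C57Bl/6J mice, beside 8.52% and 5.35% of all genes, with a median of 1.04 against 0.32 over all genes. *Bst2* was 137 ± 24.2 CPM (n = 7) in C57Bl/6J and 11.8 ± 5.56 CPM (n = 6) in Balb/c. Among brain Tregs 1 of 40 (*Bst2*) lay above and 1 (*Gbp4*) below, beside 0.281% and 0.606% of all genes. In hypothalamic Tregs 0 of 30 tested lay apart, beside 0.0455% and 0.182%, and the median difference was 0.71 against -0.0033 over all genes.

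Of 37 other genes of the Ly6 superfamily, 32 are in the files, and they were low in Tconv: their sum was 12.9 to 71.1 CPM in Balb/c hypothalamic Tconv and 21.1 to 54.8 CPM in C57Bl/6J, and 18.4 to 42.8 and 23.5 to 67.1 CPM in the brain. In Tregs of the brain the sum was 5.14 to 26.4 CPM in Balb/c and 0.320 to 101 CPM in C57Bl/6J. In those of the hypothalamus it was 0 to 228 CPM in Balb/c (median 0.563) and 0.0858 to 745 CPM in C57Bl/6J (median 50.8), where 7 of the genes reached 10 CPM in a library. In the brain 2 of 10 tested, *Lypd6b* and *Ly6g5b*, were lower in Tregs, and in the hypothalamus the same 2 of 3 tested, beside 15.2% and 32.7% of all genes. For the diet, 0 passed.

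The genes whose log2 levels correlated best with the 4 genes over the 29 Tconv libraries follow strain and sex. The strain levels helped to choose the 4 genes, so this order follows from the choice and is described only. Among 8098 genes with a mean of at least 10 CPM, *Ly6a* was closest to *Eif2s3y* (Pearson r = 0.977), a translation factor gene of the Y chromosome, *Trim12a* (0.975) and the Y-linked *Ddx3y* (0.968). *Ly6e* was closest to *Eif2s3y* (0.973), *Trim12a* (0.971) and *Ifi213* (0.967), and *Ly6c2* to *Hsd11b1* (0.924), *Eif2s3y* (0.915) and *Trim12a* (0.914). *Ly6c1* was closest to *Tsix* (0.803), *Xist* (0.798) and *Scg5* (0.796). *Xist* is the RNA that coats the inactive X chromosome, and *Tsix* is its antisense transcript. *Eif2s3y* was 137 to 339 CPM in C57Bl/6J and at most 0.176 CPM in Balb/c libraries, from male and female mice respectively. Within a strain these correlations were lower: in Balb/c (n = 14) and C57Bl/6J (n = 15), *Ly6a* had r = 0.03 and 0.58 with *Eif2s3y*, -0.18 and 0.41 with *Trim12a* and 0.17 and -0.50 with *Ddx3y*. Over the genes named here, they ran from -0.25 to 0.55 within Balb/c and from -0.50 to 0.69 within C57Bl/6J. Among the 4 genes, *Ly6a* and *Ly6e* had r = 0.83 within C57Bl/6J and 0.16 within Balb/c.

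The 8 libraries of the pilot experiment hold 99925 to 5334511 counts on genes, 0.391% to 17.1% of the reads counted. The values have no replicate check, and intervals (95%) cover counting error only. Reads were not marked by molecular identifiers. *Ly6a* had 3525 counts in CD4+ T cells of *ob/ob* mice (2041 CPM) and 0 in those of WT mice, which allows up to 13.6 CPM at 3 counts. After scaling by size factors it was at least 151-fold higher. *Ly6e* had 6279 counts (3635 CPM) and 8 counts (36.3 CPM), a ratio of 101 (51.1 to 233). *Ly6c2* had 2436 and 108 counts, a ratio of 2.89 (2.39 to 3.54), and *Ly6c1* 361 and 8, a ratio of 5.79 (2.91 to 13.5). With size factors of these 2 libraries alone, the values for *Ly6a*, *Ly6e*, *Ly6c2* and *Ly6c1* were 289, 193, 5.55 and 11.1. *Ly6a* at 0 in this C57Bl/6J WT library stands beside 1246 to 2389 CPM in the 8 C57Bl/6J hypothalamic Tconv libraries of the main experiment, which came from males and were gated, prepared and counted in another way. A fold above 2 or below 0.5 was common in this pair: 89.9% of genes with more than 20 normalized reads had one.

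In CD25high cells of *ob/ob* mice, a library of 99925 counts, *Ly6c1* had 32 and *Ly6c2* 18 counts, against 0 of each in 5334511 counts of WT mice, at least 167-fold and 93.7-fold higher (569-fold and 320-fold with library totals in place of size factors). *Ly6e* had 52 and 1672 counts, a ratio of 0.486 (0.361 to 0.640) that turned to 1.66 with library totals in place of size factors. *Ly6a* had 0 and 35 counts. Here 91.4% of genes passed the fold limits. In Balb/c mice *Ly6a* was at 0 or 1 count in 3 of 4 libraries. *Ly6a* had 1 count in CD44neg T cells under HFHS feeding and 0 under SD. It had 263 counts (130 CPM) in Tregs under HFHS feeding and 0 under SD, at least 73.0-fold higher. *Ly6c2* had 114 counts in CD44neg T cells under HFHS feeding and 24 under SD, a ratio of 8.09 (5.18 to 13.1), and 16 and 58 counts in Tregs, a ratio of 0.230 (0.123 to 0.405). *Ly6e* had 969 and 881 counts in CD44neg T cells, a ratio of 1.87 (1.71 to 2.06), and 526 and 455 in Tregs, a ratio of 0.962 (0.847 to 1.09). *Ly6c1* had 11 and 31 counts in CD44neg T cells, a ratio of 0.605 (0.274 to 1.24), and 0 and 6 in Tregs. The shares of all genes past the fold limits were 61.9% in CD44neg T cells and 80.5% in Tregs.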

How the data were processed

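RNA-seq values of 59 libraries of the main experiment and 8 of the pilot were used as the authors deposited them. Main libraries hold Salmon's estimated counts and TPM per RefSeq name on mm10, which the authors made with the nf-core pipeline from paired reads. Pilot files hold the authors' HTSeq counts per gene symbol after alignment with BWA. Estimated counts were summed over the names of each gene, with 34652 of 35034 names matched to a gene, other names kept as features of their own, and CPM taken over the library's total. The pseudocount on the log2 scale was 1 CPM.

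Rounded counts were tested with edgeR 4.0.16 in R 4.3.3 (glmQLFit and glmQLFTest, TMM scaling, Benjamini-Hochberg adjustment over all genes of a fit, threshold 0.05), after removing genes that did not exceed 10 counts in a number of libraries equal to the smallest group. Diet, and its difference between strains, was fitted within each cell type and tissue, and Treg minus Tconv within each tissue. The difference of the Treg contrast between the strains was added after the data were seen. Strain and tissue levels were described only. Fits were tested on simulated data. Alternatives were DESeq2 1.42.0, other scalings and filters, *Ly6c1* and *Ly6c2* summed, the pool of mice as a block, and leaving out each library. Libraries of 1 strain and diet with the same pair of numbers in the labels were read as 1 pool of mice, which was the block. Correlations of their deviations from the group means ran from -0.0527 to 0.0641. They do not bear out the pairing, so the counts within pools and the block rest on the reading of the labels. Replicates are pools of mice.

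The 4 genes, the lists and the tests were chosen with earlier results of these data known. Named besides the 4 genes are listed genes past the threshold, leading markers of other cell types by mean CPM and the 3 genes closest to each of the 4 by Pearson correlation. Not every such gene is reported here. Pilot ratios were scaled by median-of-ratios size factors, with exact intervals for counting error. Pilot rows of reads on no gene stayed out of the totals. Gene models and sequences are from GENCODE M21 (GRCm38).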

Additional observations from a re-analysis of the deposited data

Results flagged for a closer look

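Over 48 sets of 4 libraries (12 groups and 4 genes), 3 values stood far from the other libraries of their group, and chance marks about 1 in 20 groups. *Ly6a* was 60.9 CPM in Tregs of the hypothalamus from Balb/c HFHS pool 11_14 and 926 to 1613 CPM in the other 3 libraries. The gap was 0.83 of the group's range on the log2(CPM + 1) scale. Balb/c SD pool 32_36 is 1 of the 4 hypothalamic Treg libraries low in *Foxp3*. There *Ly6c1* was 273 CPM (others 0 to 0.0878 CPM) and *Ly6c2* 22.9 CPM (others 0 to 0.176 CPM). On the same log2 scale, the gaps were 0.985 and 0.949 of the range. *Cldn5* was 39.7 CPM and monocyte markers summed to 4255 CPM in that library, and their part in these values was not tested.

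The log2 fold change of Tregs over Tconv was unlike in the strains for *Ly6c1* in the hypothalamus (Balb/c minus C57Bl/6J, -6.97) and in the brain (-9.86), for *Ly6a* in the brain (2.02) and for *Ly6e* in the brain (-1.81). These are fitted values given as a description, since the strain levels of the genes helped to choose them. The values of *Ly6c1* rest on Treg levels near 0 in most Balb/c libraries and depend on the prior count. In the hypothalamus that of *Ly6c1* ran from -12.4 to -4.63 when 1 library was left out, and 10 of 32 such fits missed the threshold. That of *Ly6a* in the brain was 0.55 without Balb/c SD Treg pool 37_41. The listed values are those past edgeR's threshold. That of *Ly6a* in the hypothalamus, 1.96 to 2.94 when 1 library was left out, was not past it. With the pool of mice as a block the values in the brain were -9.89 for *Ly6c1*, 1.85 for *Ly6a* and -1.43 for *Ly6e*.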

How the results depend on the processing

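The 88 strain differences of the 4 genes under 7 other settings changed sign in 0 cases, and the 112 tissue differences under 8 settings in 11, all of *Ly6a* or *Ly6e*. Leaving out 1 library changed the sign of 0 of 236 strain and 12 of 236 tissue differences. The difference of *Ly6e* between strains in Tconv of the brain was 2.43 with size factors and 2.55 on TPM, and that between tissues in Balb/c Tconv 0.52 on TPM. DESeq2 called more genes than edgeR: 185, 146, 1225 and 798 for diet in Tconv of the hypothalamus and brain and Tregs of the hypothalamus and brain, 171, 675, 1354 and 587 for the difference of the diet effect between strains, and 3118 in the hypothalamus and 2214 in the brain for that of the Treg contrast. In Tconv of the brain the diet difference between strains held 75 genes, 16 with library totals (3 higher and 13 lower in Balb/c, against 63 and 12), 146 with size factors and 35 with a filter of more than 10 counts in total; library totals gave 1 gene for diet and moved the median of all genes from -0.00 to -0.36. In hypothalamic Tregs that filter gave 54 genes for diet and 9 for its strain difference, leaving out the libraries low in *Foxp3* gave 1 and 1, and leaving out those with *Cldn5* gave 2 and 1, and 363 for the strain difference of the Treg contrast. With library totals, the Treg contrast in Balb/c brain had 705 genes higher and 648 lower (523 and 867 with TMM), and its strain difference 405 and 253 (271 and 406). With the replicate block of the pool of mice, the Treg contrast called 1246 genes in the brain and its strain difference 0 in the hypothalamus and 175 in the brain. Causes were not tested; the block leaves out libraries without a partner.

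Signs that turned were, with library totals, *Ly6c2* for diet in hypothalamic Tconv (-0.0233) and *Ly6e* for the diet difference between strains in Tconv of the brain (-0.0651). In hypothalamic Tregs, *Ly6a* for diet became 0.97 without the libraries low in *Foxp3* and 0.30 without those with *Cldn5*, *Ly6c1* for diet 1.23 without the latter, and the diet difference between strains -0.56 for *Ly6a* and 5.91 for *Ly6c1* without the former. The libraries with *Cldn5* above 10 CPM are those with *Ly6c1* above 10 CPM, so its values without them follow from that choice. *Ly6c1* in C57Bl/6J hypothalamic Tregs became -0.76 and -5.06, and the strain difference of *Ly6c2* there -1.78 and -1.50. With the replicate block, *Ly6e* in hypothalamic Tregs became -0.17, *Ly6a* and *Ly6c1* in those of C57Bl/6J -0.27 and -4.25, and *Ly6c1* in C57Bl/6J Tregs of the brain -0.96. In the pilot, size factors of the CD4+ pair alone gave 289, 193, 5.55 and 11.1 for *Ly6a*, *Ly6e*, *Ly6c2* and *Ly6c1* where all 8 libraries gave 151, 101, 2.89 and 5.79, and library totals gave 4.58, 569, 320 and 1.66 for *Ly6a*, *Ly6c1*, *Ly6c2* and *Ly6e* in CD25high cells (1.34, 167, 93.7 and 0.486 with size factors; an upper limit for *Ly6a* and lower limits for *Ly6c1* and *Ly6c2*), and for *Ly6e* 1.68 in CD44neg T cells and 0.703 in Tregs. The limit of more than 20 normalized reads left many pilot ratios without a value.

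Leaving out 1 library gave 1283 to 3295 genes for the Treg contrast in the brain, 490 to 1211 for its strain difference there and 288 to 843 in the hypothalamus. For diet it gave 0 to 6 in Tconv of the brain, 0 to 1 in Tconv of the hypothalamus, 0 to 30 in Tregs of the brain and 0 to 11 in those of the hypothalamus. For its strain difference it gave 0 to 224, 0 to 1, 0 to 31 and 0 to 1. Signs of member values turned when 1 library was left out, over these ranges of the log2 fold change. For diet in hypothalamic Tconv, *Ly6c1* ran from -0.0604 to 0.209, *Ly6c2* from -0.132 to 0.119 and *Ly6e* from -0.0031 to 0.186, and their strain differences from -0.480 to 0.0314, -0.330 to 0.172 and -0.0435 to 0.301. In Tconv of the brain, diet ran from -0.232 to 0.0452 for *Ly6c2*, and its strain difference from -0.0022 to 0.463 for *Ly6e*. In hypothalamic Tregs, diet ran from -0.879 to 0.0771 for *Ly6a*, and its strain difference from -0.654 to 1.28 for *Ly6a* and -4.88 to 10.3 for *Ly6c1*. In brain Tregs, *Ly6a* ran from -0.0573 to 1.88 for diet and -0.0273 to 3.85 for its strain difference, the highest of both without Balb/c SD pool 37_41 and past the threshold there (adjusted p = 0.0323 and 0.0286). For the Treg contrast in the hypothalamus, *Ly6e* ran from -0.0997 to 0.133, *Ly6c1* in C57Bl/6J from -1.23 to 1.28 and the strain difference of *Ly6c2* from -2.31 to 2.21. In the brain, *Ly6a* ran from -0.549 to 0.431 over both strains and from -0.274 to 1.69 in Balb/c, and *Ly6c1* in C57Bl/6J from -0.343 to 0.627.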
